A study of Mus musculus with 4 samples.

Results

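Muc1, Muc6, Tff1, Tff2, Tspan1, Tspan8, Wfdc2 and Agr2, 8 of the 31053 genes in the deposited matrices, were followed in the acinar and ductal cells of mouse pancreas recovering from pancreatitis. They were chosen by name from among genes of gastric mucus and metaplasia, not by their values here. The mice were wild-type (WT) C57BL/6, and every group carried this genotype. They had received saline or caerulein, a peptide that acts like cholecystokinin and sets off pancreatitis when given in excess. Recovery lasted 2 days (S2D after saline, C2D after caerulein) or 6 weeks (S6W and C6W). Each of these 4 groups had 1 library, made from cells sorted as negative for DAPI, and neither ages nor the number of mice per library were given in the sources used here. No difference could therefore be tested against variation between animals, no p-value was computed, and all intervals (exact, 95%) cover counting error only.

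Mucins are the heavily glycosylated proteins of mucus and of epithelial surfaces, and trefoil factors are small secreted peptides packed beside them. In the stomach TFF1 is made by surface pit cells, and TFF2 and MUC6 by mucous neck cells. When acinar cells of the injured pancreas lose their enzyme programme they can take on features of ducts and of these gastric lineages, a state described as acinar-to-ductal or pyloric-type metaplasia. AGR2 is a disulfide isomerase needed to fold mucins, TSPAN1 and TSPAN8 are 4-pass membrane proteins, and WFDC2 is a secreted protein with a whey acidic protein (WAP) domain. In GENCODE vM21 (GRCm38) Tspan1 lies at chr4:116161869-116167601 and Tff2 at chr17:31141049-31144282, both on the minus strand. Tspan8 lies at chr10:115816832-115849893, Wfdc2 at chr2:164562413-164568510 and Muc1 at chr3:89229057-89233381, all on the plus strand. Tff1, at chr17:31161395-31165277 on the minus strand, is a near neighbour of Tff2.

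The libraries held 29145886 to 71547194 unique molecular identifiers (UMIs, each a captured transcript), and 2017 to 4637 cells per library were analysed. Cells were clustered without the 8 genes and named from other marker genes. Acinar-like cells numbered 371 in C2D, 413 in S2D, 348 in C6W and 439 in S6W, and all 13 acinar markers had UMIs in each. Ductal-like cells numbered 175, 771, 554 and 220 in the same order, with all 17 ductal markers in each. A further cluster carried both marker sets too evenly to be named and is called the unnamed cluster below; it held 397 cells of C2D (8.56%) and 9 to 18 cells of each other library. Cluster 32 held 369 of the 371 C2D acinar-like cells and was led by Reg3b and Reg2, injury-induced secreted lectins, while those of the other libraries fell in cluster 7, apart from 1 cell of S6W and 1 of C6W. Likewise 131 of the 175 ductal-like cells of C2D formed cluster 31, led by Lcn2, a defence protein. A cluster may therefore be its library rather than a cell type. Acinar-like barcodes had a median of 440 to 533 genes outside C2D and 1023 in C2D cluster 32, with a mitochondrial share of 0.0173% there and 0.165 to 0.262% in cluster 7. Whether they were intact cells was not tested. Pairs of libraries shared 0 to 10 of the analysed barcodes.

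A gene was compared where both libraries together held at least 20 UMIs of it in a class. Muc6 and Tff1, the gland and pit products that define mucous stomach cells, were too sparse everywhere. Neither had a UMI in any acinar-like cell, which allows a share of cells with a UMI of up to 0.683% in S6W and 0.862% in C6W. Muc6 had 1 UMI in the ductal-like cells of S2D and 1 in those of C2D. Tff1 had none in ductal-like cells, and 2 UMIs in the C2D cells of cluster 4, another cluster without a class name, were all it had in the classes measured. Agr2 was also too sparse, with 6 UMIs in acinar-like cells of C2D, 6 in C6W and 1 in each saline library. In ductal-like cells it had 1 UMI, in C2D. Tspan8 (14, 1, 0 and 0 UMIs in C2D, C6W, S2D and S6W) and Wfdc2 (16, 1, 0 and 1) were too sparse in acinar-like cells, and Tspan1 (8, 1, 5 and 2) in ductal-like cells. That left Muc1, Tff2 and Tspan1 for the acinar-like cells, and Muc1, Tff2, Tspan8 and Wfdc2 for the ductal-like cells.

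**Figure D1:**
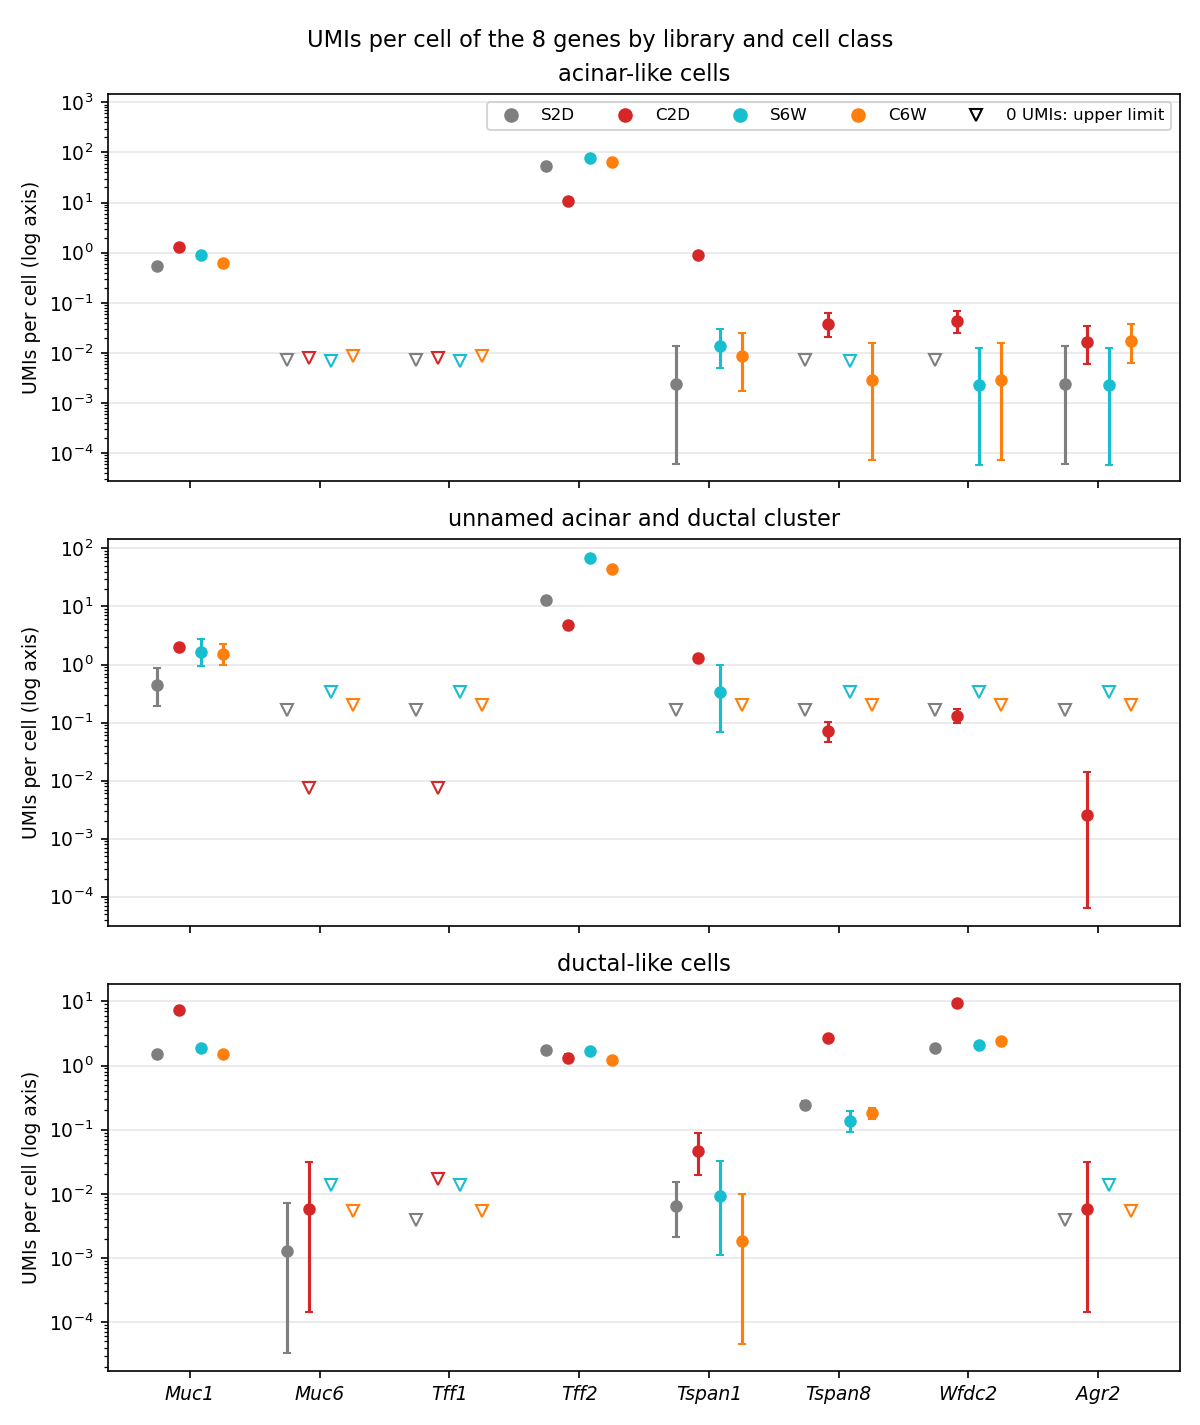
UMIs per cell (log axis) of the 8 genes in acinar-like cells, the unnamed cluster and ductal-like cells, 1 point per library with its exact Poisson interval. Open triangles are the limit that 0 UMIs allows. In acinar-like cells Tspan1 stands at 0.919 in C2D and below 0.02 in the other libraries, and Tff2 is lowest in C2D at 10.96.

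Among the members compared in acinar-like cells at 2 days, only Tspan1 was nearly absent outside C2D. It had 341 UMIs in the acinar-like cells of C2D, against 1 in S2D, 6 in S6W and 3 in C6W. Per cell this was 0.919 (0.824 to 1.02) in C2D, 0.00242 in S2D, 0.0137 in S6W and 0.00862 in C6W. Only C2D stood apart, and the intervals of the other libraries overlapped. A Tspan1 UMI was seen in 154 of 371 C2D cells (41.5%, 36.5 to 46.7%) and in 0.242%, 1.14% and 0.862% of acinar-like cells in S2D, S6W and C6W. T-like and B-like cells, taken here as the level of free RNA, had one in 0.826% of C2D cells (median depth 5375 UMIs, against 9870 in the acinar-like cells). With every cell thinned to 1000 UMIs the C2D acinar-like share was 6.20% and that of S2D was 0 of 404 cells.

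The log2 ratio of Tspan1 in C2D over S2D was 7.13 (4.64 to 12.44), after scaling by TMM-adjusted totals. The width comes from the single S2D UMI. Of the 8 genes 3 could be compared in acinar-like cells at 2 days, of which 1 (Tspan1) lay 2-fold or more above saline and 1 (Tff2) 2-fold or more below. Among all 5933 genes compared there, 15.2% lay that far above and 13.9% that far below. The split turned on the scaling, with 72.1% above and 1.48% below in plain CPM (UMIs over the plain total of the class), 68.8% and 1.6% in UMIs per cell, and 13.4% and 16.6% over totals without digestive genes. These shares are large, so the counts alone say little of these genes. At 6 weeks Tspan1 had 9 UMIs over both libraries and was too sparse to compare.

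The unnamed cluster carried Tspan1 as well. Its C2D cells held 504 UMIs, or 1.27 per cell (1.16 to 1.39), and 45.8% of them had at least 1 (40.9 to 50.9%). The next levels in C2D were far lower, at 0.0457 per ductal-like cell and 0.0188 per macrophage-like cell. Macrophage markers moved with Tspan1 in the acinar-like cells: 8 of 8 had UMIs in C2D, S6W and C6W and 7 of 8 in S2D (Mrc1 at 0), and they summed to 6.73 UMIs per cell in C2D against 0.291 to 0.454 in the others. T cell markers summed to 0.208 in C2D (6 of 6) and 0.0137 to 0.0460 in the others (4 or 5 of 6, with Cd3g, Trac, Cd3e or Cd3d at 0). The macrophage-like cells themselves held 42 Tspan1 UMIs over 2240 cells. Ductal markers were also higher, with a C2D sum of 27.98 UMIs per acinar-like cell and sums of 2.88 to 3.35 in the other libraries, with 15 of 17 detected in C2D (Onecut2 and Pkhd1 at 0) and 14 or 15 in the others (Onecut2 and Slc4a4 or Cftr at 0). Monocyte markers were higher too, at 0.189 in C2D and 0.0182 to 0.0654 in the others. Some lists were not higher: B cell markers summed to 0.0108 in C2D and 0.0205 to 0.305 in the other libraries. Plasma cell markers stood at 0.534 and 0.580 to 0.843, fibroblast markers at 0.752 and 0.597 to 1.11, and NK markers had no UMI in C2D. The part of the marker lists in the Tspan1 level was not tested further.

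Other genes of the stomach lining were found in the same cells. Gkn3, a gastrokine of the gastric mucosa, had 444 UMIs in acinar-like cells of C2D and 0 in those of S2D, S6W and C6W. Anxa10, an annexin of gastric epithelium, had 113 and Gif, gastric intrinsic factor, had 68, again with 0 in the other 3 libraries. With the S2D library set at a floor of 3 counts over the group, Gkn3 was at least 60.8-fold, Anxa10 at least 15.5-fold and Gif at least 9.31-fold higher. A UMI was seen in 32.9% (Gkn3), 16.4% (Anxa10) and 11.6% (Gif) of the C2D acinar-like cells, and in 9.70%, 1.62% and 2.16% after thinning. The T-like and B-like cells of C2D had 1 Gkn3 UMI and none of Anxa10 or Gif over 121 cells. The balance differed in the unnamed cluster of C2D, where Anxa10 led with 536 UMIs (41.3% of cells) and Gkn3 and Gif had 290 (9.82%) and 13 (2.27%).

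Within the C2D acinar-like cells, Anxa10 was seen in 43 of 154 cells with Tspan1 (27.9%) and in 8.29% of the 217 without. The cells with Tspan1 were deeper (median 13834 against 7765 UMIs), and Anxa10 stood at 34.1 and 12.3 CPM in them (CPM being the UMIs of a gene per 1000000 of the cells summed). For Gkn3 the values lay closer: it was seen in 35.1% of cells with Tspan1 and 31.3% of those without, at 97.95 and 96.0 CPM. Gkn3 and Gif met more often, with Gif in 22.1% of 122 cells with Gkn3 and 6.43% of the 249 without (25.9 and 8.81 CPM), at similar depths (median 10334 and 9742 UMIs). In the unnamed cluster of C2D it was Gkn3 that was higher in cells with Tspan1, at 60.3 and 32.0 CPM (15.9% and 4.65% of cells), and Anxa10 stood at 96.95 and 100.2 CPM (53.3% and 31.2% of cells). There too the cells with Tspan1 were deeper.

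Across 33 sums of a class in a library with at least 50 cells, the genes whose levels (log2 of CPM plus 10) were most like that of Tspan1 were S100g, a calcium-binding protein (r = 0.99), Gkn3 (0.98) and Anxa10 (0.96). These sums share libraries and depth, and the likeness rests on C2D acinar-like cells and the unnamed cluster, where the 3 genes were high.

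The 250 bases before the RefSeq start of these genes (GRCm38.p6) are shown because Tspan1, Anxa10 and Gkn3 were high in the same sums. Capitals mark matches on either strand to 4 motifs. The AP-1 site was searched as TGANTCA. An E-box form was searched as CACCTG. The core bound by RBPJ, the Notch pathway factor, was searched as TGGGAA. The TATA box was searched as TATAAA. They lie at chr4:116167599-116167848 (Tspan1), chr8:62123194-62123443 (Anxa10) and chr6:87388936-87389185 (Gkn3), all on the minus strand.
Tspan1: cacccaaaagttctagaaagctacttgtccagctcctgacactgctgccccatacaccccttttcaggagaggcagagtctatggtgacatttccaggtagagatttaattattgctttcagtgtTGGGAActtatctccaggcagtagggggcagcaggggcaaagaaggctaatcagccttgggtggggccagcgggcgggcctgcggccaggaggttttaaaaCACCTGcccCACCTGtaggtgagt
Anxa10: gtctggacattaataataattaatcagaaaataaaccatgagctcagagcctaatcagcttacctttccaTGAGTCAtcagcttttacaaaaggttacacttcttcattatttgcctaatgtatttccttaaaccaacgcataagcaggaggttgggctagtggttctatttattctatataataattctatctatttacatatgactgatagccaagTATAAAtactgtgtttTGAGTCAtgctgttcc
Gkn3: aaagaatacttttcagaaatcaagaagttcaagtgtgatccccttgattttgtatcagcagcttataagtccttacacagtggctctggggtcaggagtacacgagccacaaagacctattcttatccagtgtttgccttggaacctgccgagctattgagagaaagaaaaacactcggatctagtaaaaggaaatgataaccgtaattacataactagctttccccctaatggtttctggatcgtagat

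No motif matches overlapped. Tspan1 had CACCTG beginning 24 and 15 bases before its start and TGGGAA beginning 125 bases before it. Anxa10 had TGAGTCA 180 and 16 bases before its start and TATAAA 32 bases before it. The Gkn3 window held none of the 4. Of all 27025 windows of this length 6.87% held the AP-1 letters, 17.1% CACCTG, 21.5% TGGGAA and 13% TATAAA. Entries matched for 6 of the 8 genes, and Tff1, Tff2 and Gif had no entry.

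**Figure D2:**
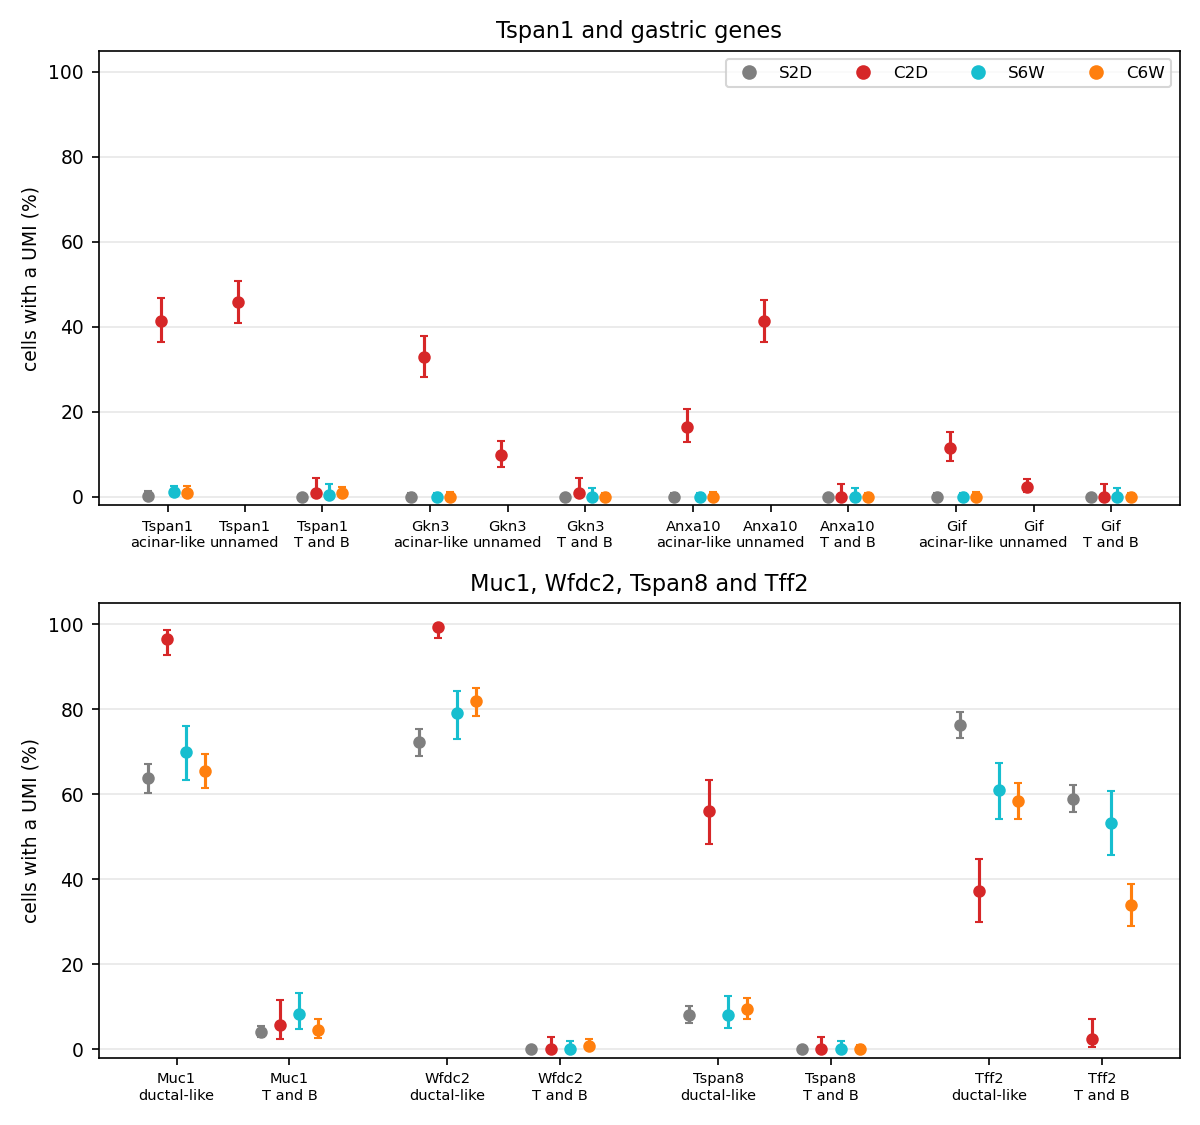
Share of cells (%) with at least 1 UMI, by library, with exact binomial intervals, in classes with at least 50 cells. In the upper panel Tspan1, Gkn3, Anxa10 and Gif lie above the T and B level in C2D, and their acinar-like shares are highest there. In the lower panel C2D is highest of the ductal-like libraries for Muc1, Wfdc2 and Tspan8 and lowest for Tff2.

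Tff2, the trefoil peptide of gastric mucous neck cells, went the other way in acinar-like cells. It was abundant there in every library, with 4066 UMIs in C2D, 21855 in S2D, 21947 in C6W and 34649 in S6W. Per cell this was 10.96 in C2D, 52.9 in S2D, 63.1 in C6W and 78.9 in S6W, and no counting interval overlapped another. Cells differed far more than counting error allows, with a variance over mean of 13.5, 157.6, 75.2 and 222.5 in that order. The intervals leave this spread out, so they do not rank S2D, C6W and S6W. C2D was lowest by far. The log2 ratio of C2D over S2D was -3.71 (-3.76 to -3.66), 13.1-fold lower, -2.27 (4.83-fold lower) per cell without scaling, and -5.24 with the unnamed cluster counted as acinar-like. At 6 weeks it was 0.04 (0.02 to 0.06), but -0.32 per cell and 0.43 in plain CPM, so its direction depended on the scaling, and other cell filters and clusterings turned it too.

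Tff2 moved with the digestive enzyme genes. The genes with levels most like it over the 33 sums were Pla2g1b, the pancreatic phospholipase (r = 0.98), Sycn, syncollin of zymogen granules, and Ctrl, a chymotrypsin. Against 1000 digestive enzyme UMIs of the same cells, Tff2 stood at 4.59 (4.53 to 4.66) in S2D, 1.44 (1.39 to 1.48) in C2D, 5.16 (5.11 to 5.21) in S6W and 7.27 (7.18 to 7.37) in C6W. It was thus lower in C2D by more than these enzymes as a group, and higher in C6W than in either saline library. Digestive genes took 87.7% of the acinar-like UMIs in S2D, 88.3% in S6W, 61.9% in C2D and 84.6% in C6W. In the unnamed cluster the C2D value was 1.05 (1.004 to 1.10), and in its 9 to 18 cells of the other libraries 5.24 to 6.90.

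Outside acinar cells the same ratio was read in T-like, B-like, fibroblast-like and macrophage-like cells. Whether any of these classes makes Tff2 was not tested. In S2D it was 5.22 per 1000 digestive UMIs in T-like, 5.26 in B-like and 6.09 in fibroblast-like cells. In C2D it was 0.770 in T-like (5 UMIs), 1.28 in fibroblast-like and 1.22 in macrophage-like cells. The ductal-like cells of C2D were higher, at 10.17 (8.90 to 11.6). They held 232 Tff2 UMIs, where the ratio of the T-like and B-like cells gives 16.8 (5.45 to 39.2). In S2D, S6W and C6W the ductal-like cells held 1323, 368 and 668 UMIs where that ratio gives 951, 287 and 525, or 1.27 to 1.39 times as many.

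**Figure D3:**
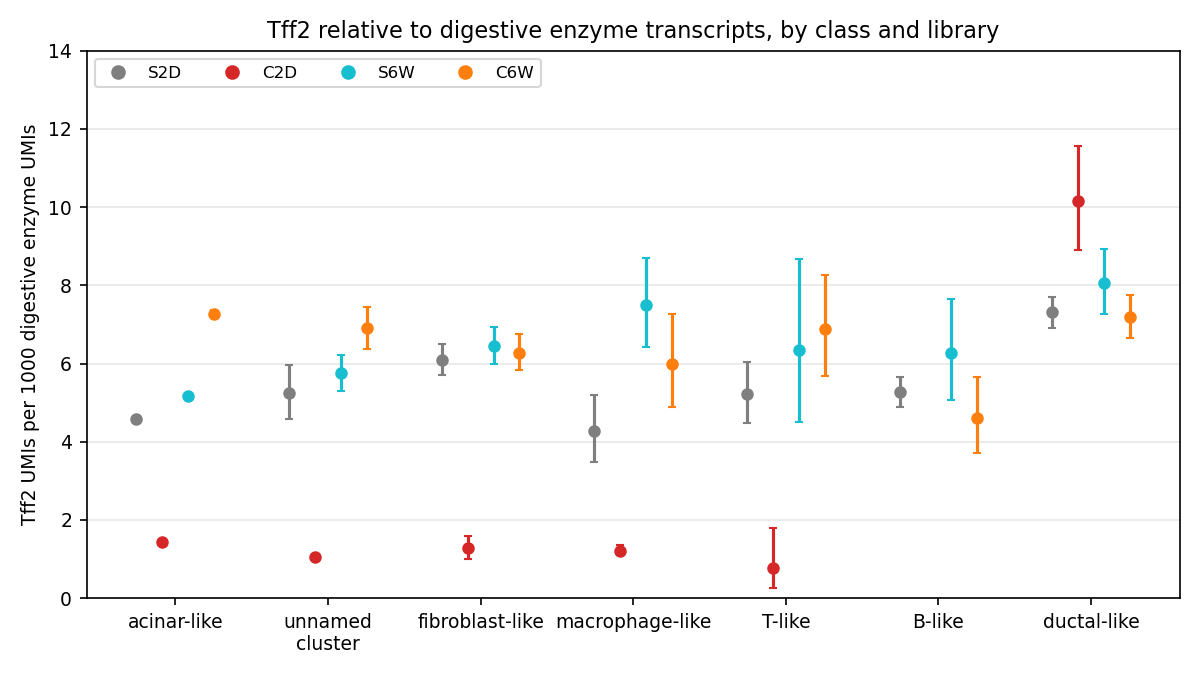
Tff2 UMIs per 1000 digestive enzyme UMIs by class and library, with exact Poisson intervals, for acinar-like, fibroblast-like, macrophage-like, T-like, B-like and ductal-like cells (classes with at least 50 cells in the library) and the unnamed cluster. In those drawn, C2D lies between 0.770 and 1.44 outside ductal-like cells, where it reaches 10.17.

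The C2D ductal Tff2 was unevenly spread. The richest 18 of 175 cells held 71.6% of the UMIs and 1 cell held 58, while in S2D the richest 77 of 771 held 34.6%. With the 3 cells of at least 10 UMIs left out, C2D stood at 6.42 per 1000 digestive UMIs. This was still above the T-like, fibroblast-like and macrophage-like cells of C2D. It was no higher than ductal-like cells of the other libraries trimmed by the same rule, at 6.66 (S2D), 6.71 (S6W) and 6.72 (C6W). A UMI was seen in 37.1% of C2D ductal-like cells (30.0 to 44.8%), against 2.48% of T-like and B-like cells, at median depths of 20500 and 5375 UMIs. In S2D these shares were 76.4% and 59.0%, in S6W 60.9% and 53.3%, and in C6W 58.5% and 33.9%. After thinning, the ductal-like share was 2.87% in C2D and 20.7% in S2D, and that of the T-like and B-like cells 0% and 15.8%. Tff2 was seen in 50% of C2D ductal-like cells with Tspan8 and 20.8% of those without, at 68.9 and 23.3 CPM. The cells with Tspan8 were deeper (median 22539.5 against 16534 UMIs). The 3 cells of at least 10 UMIs held 87 of the 232 Tff2 UMIs, and their part in this difference was not tested.

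In ductal-like cells at 2 days 4 of the 8 genes could be compared. Tspan8 and Wfdc2 (2 genes) lay 2-fold or more above saline and Tff2 (1 gene) 2-fold or more below. Of all 11987 genes compared, 8.91% lay that far above and 8.15% that far below, against 7.72% and 10.2% in plain CPM, 7.41% and 10.8% over totals without digestive genes, and 67.8% and 1.15% in UMIs per cell. Tff2 had a log2 ratio of -1.66 (-1.87 to -1.46) here, with plain levels of 189 CPM in S2D and 55.0 in C2D. Per cell the ratio was only -0.37, and it was -0.86 with free RNA subtracted, so the 2-fold call did not hold under either. That subtraction took away the whole mean profile of T-like and B-like cells, with their own transcripts. It therefore also changed the totals used for scaling. After 6 weeks the Tff2 ratio was -0.50 (-0.69 to -0.31).

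Tspan8 had the largest TMM ratio of the 4 members compared in ductal-like cells at 2 days. Per ductal-like cell it was 2.65 UMIs (2.41 to 2.90) in C2D, 0.244 (0.210 to 0.281) in S2D, 0.136 (0.0920 to 0.195) in S6W and 0.181 (0.147 to 0.219) in C6W. C2D was high, and C6W overlapped S6W and S2D. The share of cells with a UMI was 56.0% in C2D (5.17% thinned) and 8.04% (1.82%), 8.18% and 9.39% in S2D, S6W and C6W, with 0% to 0.107% in T-like and B-like cells. The log2 ratio of C2D over S2D was 2.15 (1.90 to 2.40), 4.43-fold. Single cells weighed on this gene: 1 S2D cell held 62 of 188 UMIs and 1 C6W cell 32 of 100. Without the richest cell of each library the ratio was 2.53. At 6 weeks it was 0.38 (-0.23 to 1.02), and with S2D in place of S6W as the control it was -0.73. The saline libraries themselves differed by -1.10 (-1.70 to -0.53) in S6W over S2D. The genes most like it over the 33 sums were Rgs5, a mural marker (r = 0.93), Onecut2 and Lcn2 (both 0.92). Endocrine-like cells, 5 to 7 in each of 3 libraries, held more Tspan8 per cell (6.40 to 7.40 UMIs) than the ductal-like cells. Their markers summed to 0.0343 UMIs per ductal-like cell in C2D (3 of 8 detected, Ins1, Ins2, Sst, Chga and Chgb at 0) and 0.101 in S2D (6 of 8, Chga and Chgb at 0).

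Wfdc2 was a ductal gene in all libraries. It stood at 9.58 UMIs per ductal-like cell (9.12 to 10.05) in C2D, 1.84 in S2D, 2.11 in S6W and 2.40 in C6W, and C2D was the highest. It was seen in 99.4% of C2D ductal-like cells (31.6% thinned) and in 72.2% (17.5%), 79.1% (16.4%) and 82.0% (19.1%) in S2D, S6W and C6W, against 0% to 0.806% of T-like and B-like cells. The log2 ratio at 2 days was 1.08 (0.98 to 1.19), 2.12-fold. It was 0.97 in plain CPM and 0.94 with totals without digestive genes, so the call lies at its border, while per cell it was 2.38. With free RNA subtracted the ratio was 0.63. That step also took out transcripts of the T-like and B-like cells themselves, which moved the totals used for scaling. At 6 weeks the Wfdc2 ratio was 0.15 (-0.0004 to 0.31). The genes most like it were Krt17, a basal keratin (r = 0.99), Misp and Vtcn1.

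Muc1, the membrane mucin of ducts, was found in both classes. In ductal-like cells it stood at 7.39 UMIs per cell (6.99 to 7.80) in C2D, 1.53 in S2D, 1.90 in S6W and 1.53 in C6W. C2D was highest, and S2D and C6W overlapped. It was seen in 96.6% of C2D cells (26.4% thinned), 63.8% (15.1%) of S2D, 70.0% of S6W and 65.5% of C6W cells, against 4.07% to 8.24% of T-like and B-like cells. The log2 ratio at 2 days was 0.98 (0.86 to 1.09), just short of 2-fold, but 2.27 per cell. At 6 weeks it was -0.34 (-0.51 to -0.17), or 1.27-fold lower, and -0.98 after thinning to 1000 UMIs. In acinar-like cells Muc1 was at 1.28 UMIs per cell in C2D (1.17 to 1.40), 0.533 in S2D, 0.913 in S6W and 0.629 in C6W. Its 2-day acinar ratio changed sign with the scaling, from -0.18 (-0.41 to 0.06) under TMM to 1.35 in plain CPM, where the median of all genes was 1.54, and 1.26 per cell. At 6 weeks it was -0.17 (-0.42 to 0.07), or 0.22 in plain CPM. The genes most like Muc1 were Mettl26, Prr15l and Urah (r = 0.89 each).

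The ductal values were also read inside cluster 2, which held 39 cells of C2D and 324 of S2D. There Muc1 was at 298 and 168 CPM, Wfdc2 at 468 and 222, Tspan8 at 52.8 and 15.6 and Tff2 at 64.3 and 273 in C2D and S2D. The directions were those of the class as a whole. Depth differed here as well, with medians of 11382 and 5154 UMIs per cell. Over all ductal-like cells the medians were 20500 UMIs in C2D and 8630 to 10940 in the others, and the median log2 ratio of all genes in UMIs per cell was 1.29. T cell markers summed to 0.611 UMIs per ductal-like cell in C2D (5 of 6 detected, Cd28 at 0) and 0.0182 to 0.0273 in the others (1 or 2 of 6), while the T-like cells of C2D had no UMI of Tspan8 or Wfdc2. Mural markers differed more, at 8.01 UMIs per cell in C2D (5 of 7, Myh11 and Kcnj8 at 0) and 0.218 to 0.736 in the others (5 or 6 of 7, with Kcnj8, and Pdgfrb or Myh11 in the saline libraries, at 0), while the 24 mural-like cells of C2D had no UMI of Tspan8 or Muc1 and 1 of Wfdc2. Tuft markers stood at 1.28 against 0.0818 to 0.149 (2 of 6 in C2D, with Pou2f3, Trpm5, Gnat3 and Sh2d6 at 0, and 2 to 4 in the others), fibroblast markers at 0.96 against 0.125 to 0.480 (6 of 7, Pdgfra at 0, and 6 or 7) and blood endothelial markers at 1.34 against 0.285 to 0.366 (7 of 7, and 4 or 5 with Cdh5, Kdr and at 6 weeks Emcn at 0). In CPM the C2D sums were 25.4 (T cell), 332 (mural), 53.1 (tuft), 39.8 (fibroblast) and 55.7 (blood endothelial). In that order the other libraries stood at 2.00 to 2.46, 19.7 to 65.2, 7.38 to 16.4, 13.7 to 42.5 and 31.5 to 32.5. Fibroblast markers were thus not highest in C2D by this measure. The part of these lists in the ductal values was not tested. Macrophage markers stood at 46.9 UMIs per cell in C2D (8 of 8) and 92.2 to 128 in the others (6 or 7 of 8, with Adgre1, C1qb, Mrc1 or C1qc at 0). Such a sum does not tell which of the 8 genes carried it, and this was not examined.

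**Figure D4:**
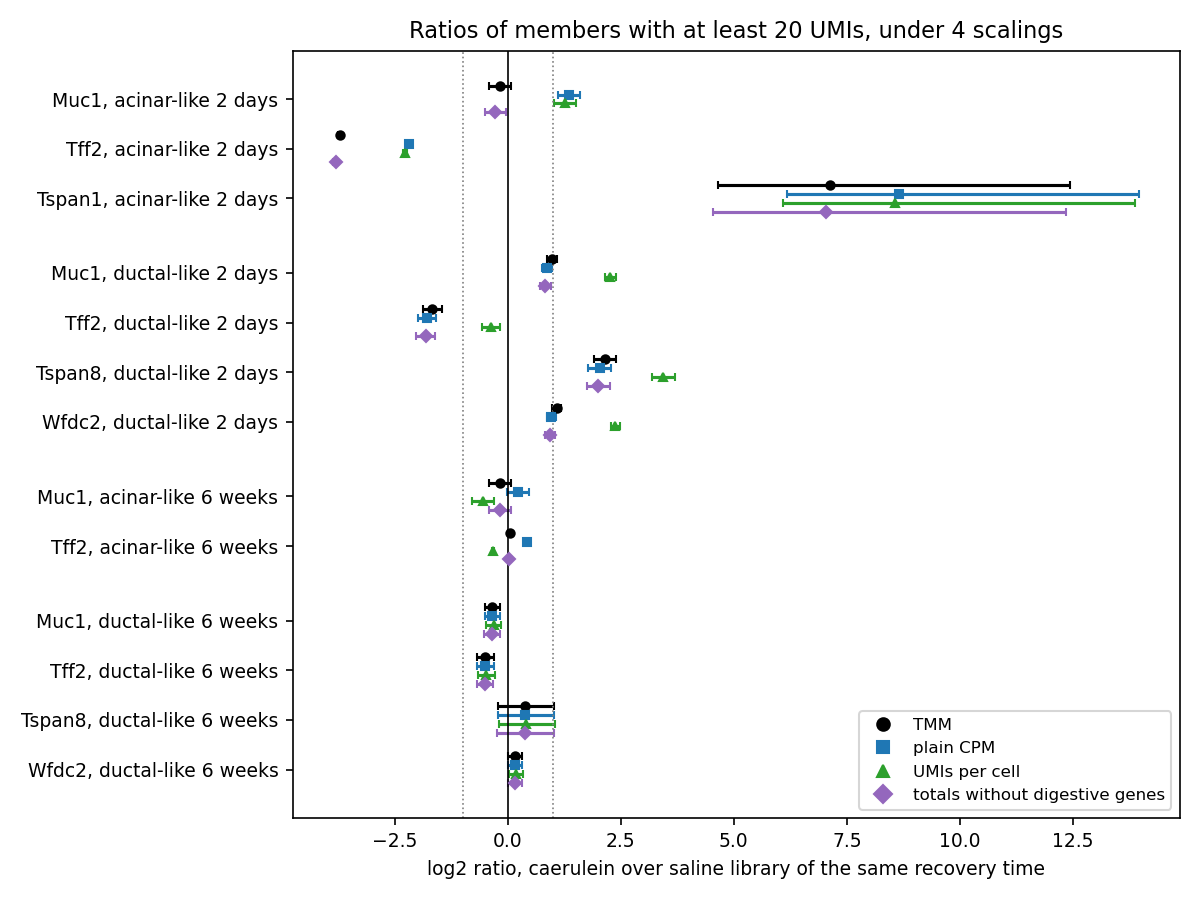
Log2 ratios of caerulein over saline for the members with at least 20 UMIs, with exact conditional intervals, under 4 scalings. Dotted lines mark 2-fold. Muc1 at 2 days in acinar-like cells and both acinar 6-week ratios lie on both sides of 0.

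At 6 weeks no member was at least 2-fold higher or lower in either class. Of the 8 genes 2 could be compared in acinar-like cells, where 5.77% of all genes lay that far above saline and 3.80% below (14.4% and 1.21% in plain CPM, 2.35% and 10.7% per cell). In ductal-like cells 4 could be compared, beside 2.40% of all genes above and 0.752% below. With so few members a count of 0 is no sign that they did not differ.

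Related genes were read from lists chosen by function. Of 26 measured gastric gland and pit genes 9 could be compared in acinar-like cells at 2 days, with 5 higher by 2-fold or more and none lower. Of all genes 15.2% lay that far above and 13.9% below (list median log2 1.18, all genes 0.01). The 5 were Gkn3, Anxa10, Gif, Gpx2 (2.47) and Mia (1.18, -0.38 to 3.17). In plain CPM 7 were higher and 0 lower (median 2.71), where 72.1% and 1.48% of all genes were. In ductal-like cells 10 were compared, with 7 higher and 2 lower (median 1.66, all genes -0.01). There 8.91% of all genes lay that far above and 8.15% below. Ctse, a gastric cathepsin, had 100 UMIs in C2D and 0 in S2D and was at least 59.97-fold higher. Dmbt1, a mucosal scavenger protein, stood at 2.72, Aqp5, a water channel of gastric glands, at 2.17 and Onecut2, a transcription factor that is also a ductal marker, at 2.02. Lgals4, an intestinal galectin, was lower at -1.53 and Pigr, the immunoglobulin transporter, at -1.07. At 6 weeks Aqp5 in ductal-like cells was at 1.49 (0.89 to 2.14) over S6W but 0.38 over S2D. Onecut2 was at 1.04 (0.09 to 2.12) over S6W but -0.47 over S2D, and Dmbt1 was at -1.60 (-2.27 to -0.95) and -0.89. The saline libraries differed in S6W over S2D by -1.10 for Aqp5, -1.5 for Onecut2 and 0.72 for Dmbt1.

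Muc5ac, the secreted mucin of gastric pits, had 1 UMI in the unnamed cluster of C2D. Muc4, a membrane mucin, had 1 in ductal-like cells of C2D, and Tff3, the intestinal trefoil peptide, had at most 5 UMIs in a class and library. Of 26 measured mucin and mucin glycosylation genes 8 could be compared in ductal-like cells at 2 days, with 2 higher and none lower (median 0.31, all genes 8.91% and 8.15%). These were Muc20, a membrane mucin, at 4.23 and Fut2, a fucosyltransferase, at 2.47. Per cell 7 of the 8 were higher, where 67.8% of all genes were. In acinar-like cells 5 were compared, with none higher and 2 lower (median -0.49, all genes 15.2% and 13.9%). In plain CPM 3 were higher and 1 lower (median 1.04, all genes 72.1% and 1.48%). Per cell 2 were higher and 1 lower (all genes 68.8% and 1.6%). The 2 lower genes under TMM, which take part in O-linked glycosylation, were Galnt6 (-2.65, and -1.21 per cell) and C1galt1c1 (-2.0, and -0.57 per cell).

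Among 10 WAP domain and secretory defence genes, the relatives of Wfdc2, 8 were compared in ductal-like cells at 2 days, with 5 higher and 1 lower (median 4.10, all genes 8.91% and 8.15%). In plain CPM (all genes 7.72% and 10.2%) and over totals without digestive genes (7.41% and 10.8%) 5 were higher and 3 lower. Slpi, a protease inhibitor, stood at 5.47, Wfdc17 at 5.10, Lcn2 at 4.84 and Wfdc18 at 3.35, and Ltf, lactoferrin, without a UMI in S2D, was at least 28.8-fold higher. Wfdc1 was lower at -2.32, with Wfdc3 at -0.98 and Wfdc15b at -0.90 short of 2-fold. Of 18 tetraspanins compared there, 3 were higher and none lower (median 0.38, all genes 8.91% and 8.15%). The highest were Tspan13 at 1.73 and Tspan6 at 1.65. Per cell 15 of the 18 were higher, where 67.8% of all genes were. In acinar-like cells 12 were compared, with Cd9 higher at 1.26 and Cd37, a leukocyte tetraspanin, lower at -2.06 (list median -0.19, all genes 15.2% and 13.9%). In plain CPM and per cell 8 of the 12 were higher and none lower (median 1.34 in plain CPM), where 72.1% and 68.8% of all genes were. Disulfide isomerases and secretory factors, the relatives and regulators of Agr2, had 5 of 13 lower and 1 higher in acinar-like cells (list median -0.53, all genes 13.9% and 15.2%). In plain CPM (median 0.999) and per cell 1 was lower and 6 higher, where 72.1% and 68.8% of all genes were higher. Foxa2, a forkhead factor, stood at -2.56 and -1.13 per cell. P4hb (-1.52), Pdia6 (-1.41) and Spdef, a goblet cell factor (-1.34), stood at -0.08, 0.02 and 0.10 per cell, so that for Pdia6 and Spdef the direction turned with the scaling. Txndc12 was the higher one, at 1.37. In ductal-like cells 2 of 15 were higher, Foxq1 at 2.78 and Foxa3 at 1.02, and none lower (all genes 8.91% and 8.15%). In plain CPM 1 was higher and per cell 11 were, where 7.72% and 67.8% of all genes were. Of 12 tuft and enteroendocrine genes none could be compared in acinar-like cells, and in ductal-like cells Dclk1, a tuft marker, stood at 2.001.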

How the data were processed

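Pancreatic cells of 4 groups, 1 library each, were measured with the 10x Genomics 3' assay. The deposited matrices held raw counts of UMIs per gene and barcode, made with Cell Ranger 3.0.2 on mm10, per the submitters' processing notes. Barcodes passed with 500 UMIs and 200 genes or more and no more than 20% mitochondrial UMIs, giving 3346 (S2D), 4656 (C2D), 2032 (S6W) and 2773 (C6W) cells. Scrublet in scanpy 1.11.5 marked 38, 19, 15 and 32 doublets, which were left out. The 0.408% marked in C2D is low, so an alternative removed doublets at an expected rate. Groups came from the sample titles.

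Cells were clustered together (2000 variable genes less the members and listed genes, 40 components, 15 neighbours, Leiden resolution 1) into 34 clusters. A class was named where its markers had a mean log2 fold of 1 or more over the other clusters, with 3 or more raised markers and a lead of 0.5 over the next class. The unnamed cluster led by less. Names mean marker-like.

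UMIs were summed per class and library, and totals were TMM-adjusted with edgeR 4.0.16. Ratios have exact conditional binomial intervals, levels Poisson and shares Clopper-Pearson intervals. A library without UMIs was set at 3 counts over the group, giving a bound. Sums over fewer than 50 cells gave no ratio. The ratios were checked on simulated data. Alternatives were plain CPM, UMIs per cell, size factors of DESeq2 1.42.0, totals that leave out digestive genes, count minimums of 50 and 100, thinning to 1000 UMIs, free RNA subtraction, and other cell filters, doublet rules and clusterings. Free RNA subtraction took off, for every cell of a class, the mean UMIs per T-like and B-like cell of the library, own transcripts included. Counting the unnamed cluster as acinar-like and leaving out the richest cells were chosen after seeing the data.

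The 8 members are named whatever their values, with up to 5 genes per list and comparison with the largest ratios and the 3 genes most like each member with at least 200 UMIs. Other genes at or near 0, and the pairs of genes read in the same cells, were chosen after their values were seen. The members and lists were chosen with earlier results of these data known. Coordinates are GENCODE vM21 and RefSeq on GRCm38. Protein sequences were not used here.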

Additional observations from a re-analysis of the deposited data

Results flagged for a closer look

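Tff2 differed between comparisons in its direction under TMM scaling: the log2 ratio was -3.71 in acinar-like cells at 2 days and 0.040 at 6 weeks, and -0.50 in ductal-like cells at 6 weeks. Muc1 in ductal-like cells was at 0.98 at 2 days and -0.34 at 6 weeks. With 1 library per group these differences were not tested, and the acinar 6-week value of Tff2 changed sign under other scalings, cell filters and clusterings.

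Signal was also found outside the acinar-like and ductal-like cells. Tspan8 was at 7.40 UMIs per endocrine-like cell in C2D, 6.40 in C6W and 7.0 in S6W, from 5 to 7 cells each. In the unnamed cluster Muc1 stood at 1.96 UMIs per cell in C2D and 1.53 in C6W, Tspan1 at 1.27 in C2D, and Tff2 at 4.73 in C2D, 44.5 in C6W, 13 in S2D and 68.0 in S6W. These levels lay above those of the T-like and B-like cells of their library. For Muc1 the saline cells of this cluster stood at 1.67 in S6W (15 UMIs in 9 cells) and 0.444 in S2D (8 UMIs in 18 cells). The C6W value of Muc1 rests on 23 UMIs in 15 cells.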

How the results depend on the processing

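Among the members no ratio of 2-fold or more changed sign under any alternative run. In acinar-like cells at 2 days 1 member was at least 2-fold higher, and 2 were under plain CPM, UMIs per cell, the stricter cell filter, clustering with the members among the variable genes, and with the unnamed cluster counted as acinar-like. In ductal-like cells at 2 days 2 members were higher, and 1 was under plain CPM, under totals without digestive genes and with free RNA subtracted. The count of lower members there was 1 (Tff2) and became 0 in UMIs per cell and with free RNA subtracted. The other 104 counts of members under alternatives were within 1.5 times. Of the values of single ratios under alternatives 149 stayed within the counting interval of the reported value and 53 did not. The 6-week Tff2 ratio of acinar-like cells ran from -0.32 to 0.43 and the ductal-like Muc1 ratio from -0.98 to -0.25. Over the alternatives the 2-day log2 ratio of Tspan1 in acinar-like cells ran from 1.63 (thinned to 1000 UMIs, a bound from 0 UMIs in S2D) to 8.66, that of Tff2 from -5.24 to -2.18, and in ductal-like cells those of Tspan8 from 1.70 to 3.44, Wfdc2 from 0.63 to 2.38, Muc1 from 0.56 to 2.27 and Tff2 from -2.25 to -0.37. Clustering without the digestive genes left under 50 acinar-like cells in C2D, too few for a value. Leaving out a replicate was impossible with 1 library per group. Muc6, Tff1 and Agr2 had too few UMIs for a ratio in both classes, and whether deeper libraries would show them was not tested. No paired analysis was possible because each group was 1 library.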

Other observations

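In the unnamed cluster 3 of the 15 C6W cells held Anxa10, with 4 UMIs in all, against 0 of 18 cells in S2D and 0 of 9 in S6W. Tspan1 had 0 UMIs in these C6W cells and 3 in the S6W cells of the cluster, all in 1 cell.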
